A study of Mus musculus with 17 samples.

Results

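Glutathione S-transferases (GSTs) of the alpha and mu classes are cytosolic enzymes that attach the tripeptide glutathione to electrophilic drugs, food toxins and products of lipid peroxidation, after which the conjugates are pumped out of the cell. In the mouse they are encoded by gene families, and several members are known as genes induced by electrophiles through the transcription factor NRF2 and, in the liver, by ligands of xenobiotic receptors. The gut epithelium expresses them as part of its barrier against ingested chemicals. The alpha and mu genes described here were chosen by their names on the array, Gsta1 to Gsta4 and Gstm1 to Gstm6, without use of any measured value. A probe carried the name of 9 of these 10 genes, 3 alpha and 6 mu, and Gsta1 had none under its name. All 9 were well above the background on each of the 17 arrays and belong to the 38703 probes tested, which carry 25029 gene or transcript names.

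RNA of the colon of C57BL/6J male mice was hybridized to 17 single-colour Agilent arrays. Wild-type (WT) mice were purchased at the age of 6 weeks, whereas mice without the pregnane X receptor (Pxr-/-) had been backcrossed on the same background and bred in house for years, so that genotype and colony of origin cannot be told apart. All had 2 weeks of acclimatization, and the age of the Pxr-/- mice is not given in the labels. PCN mice received pregnenolone 16α-carbonitrile, a steroid ligand of rodent PXR, by intraperitoneal injection at 100 mg/kg in corn oil on each of 4 days, and CONT mice received the corn oil. All mice were killed in the fed state at ZT6, 6 h after the last injection. There were 4 arrays of WT CONT, 4 of WT PCN, 5 of Pxr-/- CONT and 4 of Pxr-/- PCN. Each array is of 1 sample. The labels do not name the segment of the colon.

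Among all 136 pairs of arrays, 2 pairs stood apart. WT PCN 4 and Pxr-/- PCN 2 differed with an SD of only 0.172 on the log2 scale over the probes, and WT PCN 3 and Pxr-/- CONT 2 with an SD of 0.198, whereas the lowest value of the other 134 pairs was 0.297. Each pair joins arrays that the labels put in different groups. On WT PCN 3 and 4, Ces2a, a carboxylesterase induced through PXR, read 9.78 and 10.59, while WT PCN 1 and 2 read 14.05 and 13.98. The Pxr-/- arrays outside these 2 pairs read 9.80 to 11.05. Nr1i2, the gene of PXR itself, read 11.10 and 11.15 on WT PCN 3 and 4, 11.85 to 12.44 on the other WT arrays and 10.39 to 11.93 on the Pxr-/- arrays. Its probe thus did not fully separate the genotypes. In CONT mice alone it read 11.97 to 12.31 in WT and 10.39 to 11.61 in Pxr-/-. The log2 difference there was -1.06 ± 0.25 with 17 arrays (adjusted p = 0.201 in limma). No label was changed, and the counts of each comparison are given with all 17 arrays and again without these 4 arrays (13 arrays). In whole colon, fewer cells of a type and less RNA per cell cannot be told apart.

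The 9 genes lie at 3 places in the genome. By RefSeq (GRCm38.p6) the mu genes form 1 cluster on chromosome 3, from the start of Gstm5 at 107895854 to the end of Gstm4 at 108045179. Gstm5 comes first, followed by Gstm7 (not a member), Gstm6, Gstm3, Gstm2, Gstm1 and Gstm4. Gsta4 (78191966 to 78209349) and Gsta2 (78331018 to 78347192) flank Gsta1 and the Gsta-like genes Gm3776 and Gm10639 on chromosome 9. Gsta3 lies alone on chromosome 1 (21240565 to 21265575).

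Since the members are close relatives, the probes matter for reading the values. Each probe has 60 bases, and the longest run of bases shared by probes of different members was 9. Probes were compared only with each other and not with the transcripts of the other members, so how well each tells these relatives apart was not tested. The array annotation (build mm9) places 3 of the 14 member probes across an exon junction. Their sequences are written here in the direction of the messenger RNA.
Gsta4 probe (chromosome 9, 78046172 to 78047344, plus strand): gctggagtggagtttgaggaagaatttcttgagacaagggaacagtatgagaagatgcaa
Gstm4 probe (chromosome 3, 107846495 to 107846847, minus strand): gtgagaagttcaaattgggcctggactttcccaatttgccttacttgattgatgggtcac
Gstm6 second probe (chromosome 3, 107745662 to 107746199, minus strand): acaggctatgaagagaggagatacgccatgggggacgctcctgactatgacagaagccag
The Gstm1 probe used here is placed by the same annotation on chromosome 5 (117082490 to 117082549), away from the mu cluster, while the second Gstm1 probe lies in it (chromosome 3, 107815595 to 107815654). Both probes of this gene moved together (Pearson r = 0.94 over 13 arrays).

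NRF2 binds the antioxidant response element, whose core was searched here as TGACNNNGC on both strands. RefSeq promoter windows of 300 bases, from 250 before to 50 after the start of a gene (GRCm38.p6), were given for 9 of the 10 members, Gsta4 having none. The core was present in the windows of 2 members, Gsta3 and Gstm5, which is 2 of the 13 windows given for the members (15.4%), beside 12.4% of all 32851 windows. The stretches around both matches are shown because they are the only matches among the members, with the core in capitals. Distances are counted from the start on which each window was built. For Gsta3 that start lies downstream of the gene start given above.
Gsta3, 121 bases before the start (chromosome 1, 21240424 to 21240512, plus strand): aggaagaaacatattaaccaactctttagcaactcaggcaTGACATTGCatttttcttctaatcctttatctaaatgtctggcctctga
Gstm5, 42 bases before the start (chromosome 3, 107895772 to 107895853, plus strand): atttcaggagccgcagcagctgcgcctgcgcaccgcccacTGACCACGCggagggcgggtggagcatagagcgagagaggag
A match describes the letters in these windows and is no evidence of binding. The levels of Gsta3 and Gstm5 had r = 0.41 with each other over 13 arrays.

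The first question was whether PCN changed the GST genes in the colon. In WT, 0 of 9 members were called with all 17 arrays (limma, over 1.5-fold with an adjusted p no higher than 0.05), beside a background of 0% of all probes called. None reached an unadjusted p under 0.05, beside 4.66% of all probes. The log2 fold changes lay between -0.12 (Gstm6) and 0.34 (Gsta2), 6 above 0 and 3 below, with a median of 0.07 against -0.0001 over all probes. Without the near-identical arrays, again 0 of 9 members were called, beside 0.0491% of all probes, and all 9 log2 fold changes were above 0, from 0.14 (Gstm5) to 0.54 (Gsta3), with a median of 0.31. Gsta3 and 5 mu genes varied together over these arrays (r of 0.70 to 0.95, below), so the 9 signs are not separate observations. With 2 WT PCN arrays left the intervals are wide, an exact permutation test cannot go below p = 0.0667, and only Gstm5 kept an upper bound under a 1.5-fold rise.

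Gsta3 is the alpha enzyme best known in the mouse for conjugating the epoxide of aflatoxin B1. Its log2 intensity was 11.82, 12.28, 11.25 and 11.62 in WT CONT and 12.58, 11.97, 11.29 and 11.72 in WT PCN. It was 11.70, 11.20, 11.55, 10.72 and 11.96 in Pxr-/- CONT and 12.20, 11.64, 12.66 and 10.69 in Pxr-/- PCN. The groups overlapped throughout, and both the highest and the lowest array of all 17 belonged to Pxr-/- PCN, a 3.92-fold range. PCN against CONT differed by 0.15 ± 0.40 (SE, 95% interval -0.71 to 1.01) on the log2 scale in WT and by 0.37 ± 0.38 in Pxr-/-, with adjusted p = 0.982 and 0.894. Without the near-identical arrays the differences were 0.54 ± 0.52 and 0.39 ± 0.46.

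Gsta2, an alpha enzyme that also reduces lipid peroxides, read 10.64, 10.99, 10.98 and 10.38 in WT CONT and 11.74, 10.81, 10.70 and 11.12 in WT PCN. In Pxr-/- CONT it read 10.70, 10.68, 10.87, 10.45 and 10.62, and in Pxr-/- PCN 10.70, 11.16, 11.84 and 11.12. In Pxr-/-, 3 of the 4 PCN arrays were above every CONT array, and the remaining PCN array was level with the second highest. The log2 difference in Pxr-/- was 0.54 ± 0.23 (95% interval 0.04 to 1.04), with an unadjusted p = 0.0349 and an adjusted p = 0.647 in limma, and an exact two-sided permutation p = 0.0159. It was the only one of 36 comparisons of a member between 2 groups with an exact p under 0.05, and the adjusted value did not pass. Among 36 comparisons 1 such value can arise by chance, and the share of all probes with an exact p under 0.05 is not given here. In WT the difference was 0.34 ± 0.25 (adjusted p = 0.956). The interaction of PCN and genotype was 0.20 ± 0.34 (adjusted p = 0.913), so no difference between the genotypes was detectable. Without the near-identical arrays, of which Pxr-/- PCN 2 is one of the 3 above every CONT array, Gsta2 differed by 0.58 ± 0.29 in Pxr-/-, with an unadjusted p = 0.0727 in limma and an exact permutation p = 0.0571, and by 0.53 ± 0.32 in WT.

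Gsta4 conjugates 4-hydroxynonenal, an aldehyde from oxidized lipids. It read 9.54, 9.48, 9.91 and 9.34 in WT CONT and 9.83, 10.28, 9.54 and 9.40 in WT PCN. In Pxr-/- CONT it read 9.30, 9.41, 9.58, 9.57 and 9.07, and in Pxr-/- PCN 8.87, 9.38, 9.87 and 10.16. The groups overlapped. The difference with PCN was 0.18 ± 0.25 in WT and 0.17 ± 0.24 in Pxr-/-, with adjusted p = 0.960 and 0.929. With 13 arrays it was 0.49 ± 0.30 in WT and 0.29 ± 0.27 in Pxr-/-.

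The mu enzymes act on a wide range of epoxides and quinones, and Gstm1 is an abundant one of mouse liver. Gstm1 read 13.92, 14.24, 13.59 and 13.91 in WT CONT, 14.32, 13.87, 13.53 and 13.59 in WT PCN. It read 13.92, 13.55, 13.74, 13.35 and 14.12 in Pxr-/- CONT and 13.80, 13.57, 14.12 and 13.34 in Pxr-/- PCN. The 4 groups covered nearly the same range. The log2 difference with PCN was -0.07 ± 0.22 (95% interval -0.53 to 0.40) in WT and -0.02 ± 0.20 in Pxr-/-, so a rise by more than 1.33-fold in Pxr-/- or 1.32-fold in WT lay outside the interval with all 17 arrays. Without the near-identical arrays the upper bound in WT was 1.72-fold.

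Gstm5 varied least, from 12.38 to 12.90 over all arrays, a 1.43-fold range. Its log2 difference with PCN was 0.11 ± 0.11 in WT and -0.06 ± 0.10 in Pxr-/-. Gstm2 (13.22 to 14.09), Gstm3 (14.44 to 15.47), Gstm4 (9.77 to 11.01) and Gstm6 (10.04 to 11.61) differed with PCN by -0.12 to 0.07 in WT and by -0.03 to 0.08 in Pxr-/-. With 13 arrays the differences in WT were 0.20 ± 0.23 for Gstm2, 0.33 ± 0.24 for Gstm3, 0.31 ± 0.29 for Gstm4, 0.14 ± 0.15 for Gstm5 and 0.17 ± 0.40 for Gstm6, and those in Pxr-/- were -0.11 to 0.14. For all 9 genes the adjusted p was at least 0.647 in either genotype with 17 arrays and at least 0.732 with 13. In the plot of the levels, every member's groups overlap in these 2 comparisons.

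**Figure D1:**
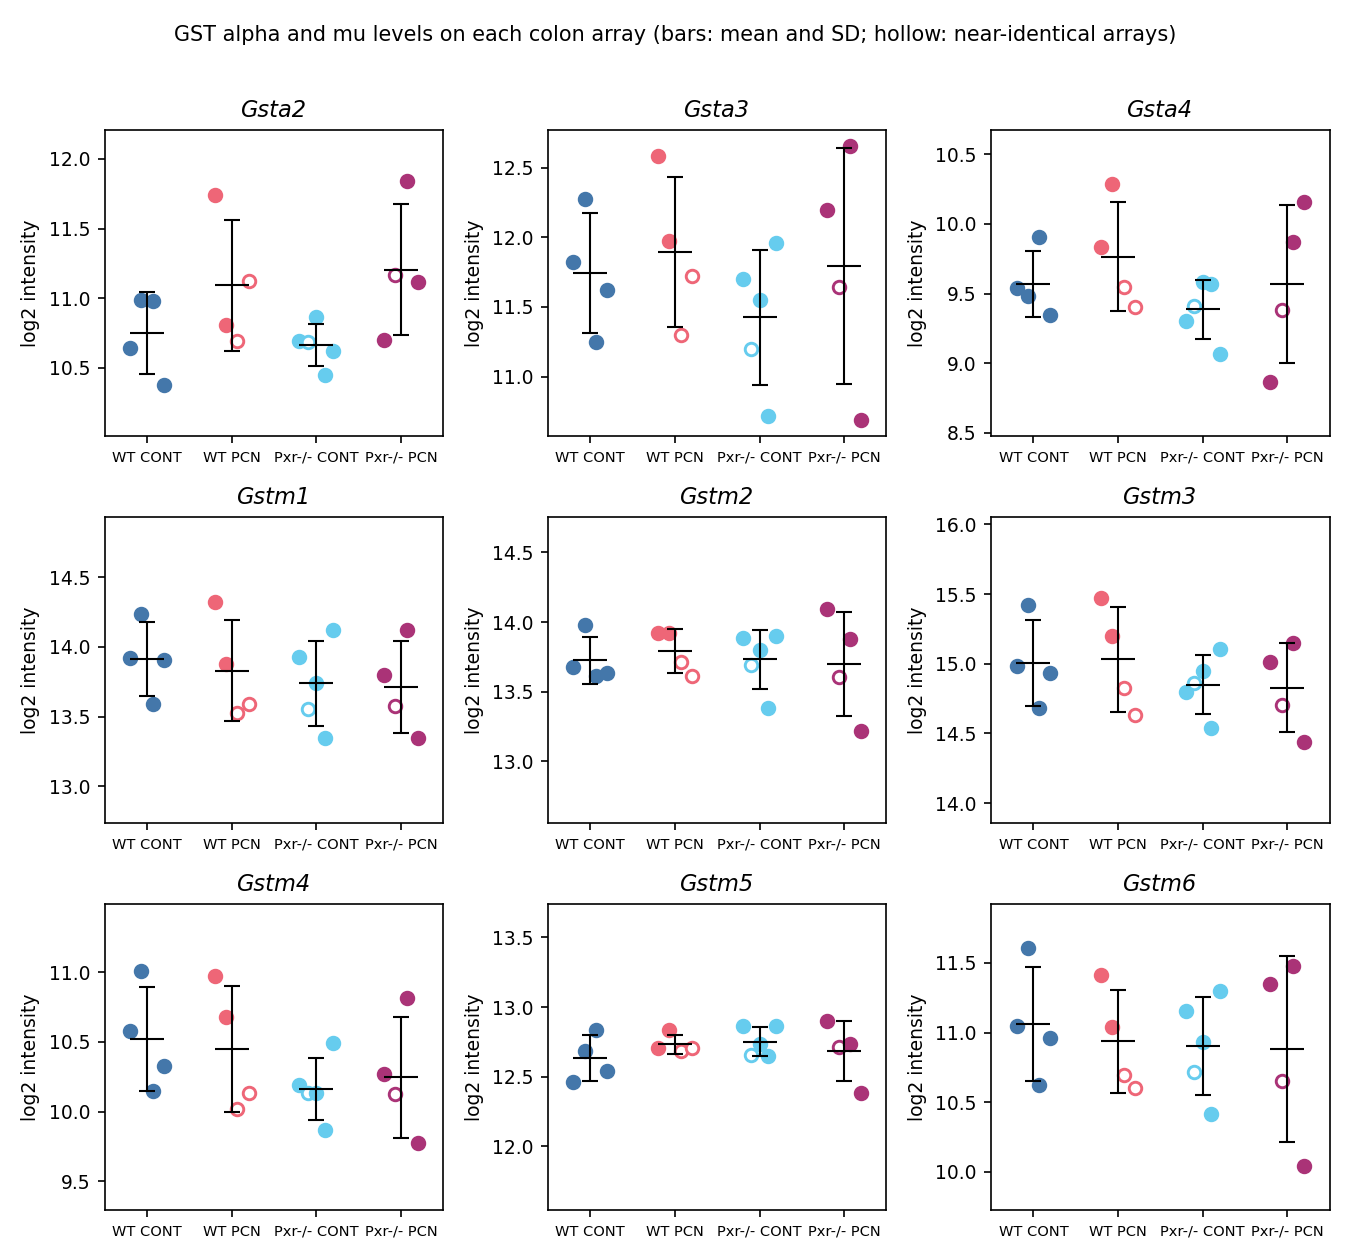
Log2 intensity (quantile-normalized, y axis, each panel spanning the same 2.2 units) of the 9 measured alpha and mu genes on the 17 colon arrays, by group on the x axis. Points are arrays, hollow points are the 4 near-identical arrays, and bars give the mean and SD; the groups overlap in every panel, and the Pxr-/- PCN group holds the lowest array of 8 genes.

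In Pxr-/-, again 0 of 9 members were called with PCN, beside 0.00517% of all probes with 17 arrays and 0.0517% with 13. The median log2 fold change was -0.02 over the members against 0.0062 over all probes, with 4 members above 0 and 5 below. With 13 arrays the median was 0.04, with 6 above 0 and 3 below. Gsta2 alone had an unadjusted p under 0.05, beside 7.35% of all probes. The 3 alpha genes had point estimates of 0.17 to 0.54 and the 6 mu genes of -0.06 to 0.08.

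The comparison of genotypes asks whether the GST genes need PXR for their level in the colon. In CONT mice 0 of 9 members were called, beside 0% of all probes, and no member had an unadjusted p under 0.05, beside 12.7% of all probes. The log2 differences of Pxr-/- against WT ran from -0.35 ± 0.24 (Gstm4, adjusted p = 0.551) to 0.12 ± 0.10 (Gstm5, adjusted p = 0.645), 7 of 9 below 0. The lower bounds of the 95% intervals reached 0.46-fold for Gsta3, 0.55-fold for Gstm4 and 0.58-fold for Gstm6, so that a fall to these levels lay within them, and the upper bound of each interval was under 1.5-fold. With 13 arrays 0 of 9 were called as well, beside 0% of all probes, and the upper bound was under 1.5-fold for 7 of the 9. In PCN mice 0 of 9 were called as well, beside 0% of all probes, none had an unadjusted p under 0.05, beside 3.28% of all probes, and the differences ran from -0.21 (Gstm3) to 0.12 (Gsta2). Without the near-identical arrays all 9 point estimates in PCN mice were below 0, from -0.51 ± 0.30 (Gstm4) to -0.04 ± 0.34 (Gsta2), and 0 were called beside 0.0207% of all probes. These 9 signs rest on the same 2 WT PCN arrays as the PCN comparison in WT and are not separate observations. Gstm3 was then higher on both WT PCN arrays (15.47 and 15.20) than on the 3 Pxr-/- PCN arrays (15.02, 15.15 and 14.44), with an exact p = 0.2. With 2 against 3 arrays that test cannot go below 0.1, and 19.1% of all probes did not overlap in this comparison. The interaction of PCN and genotype called 0 of 9 members in either set of arrays, beside 0% and 0.00258% of all probes. With 17 arrays 0 of 9 had an unadjusted p under 0.05 for the interaction, beside 5.38% of all probes.

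Known targets of PXR were called with PCN where the near-identical arrays were left out, which leaves 2 WT PCN arrays. Of 9 tested genes on a list of PXR, the related receptor CAR and their well-known targets, 3 were called higher with PCN in WT and 0 in Pxr-/-, with a list median of 0.60 in WT, against -0.0042 over all probes and 0.31 over the 9 GST genes. These were Ces2a (2.30 ± 0.24, adjusted p = 0.00664), Akr1b7, an aldo-keto reductase (1.96 ± 0.19, adjusted p = 0.00622), and Abcb1a, which encodes the drug exporter P-glycoprotein (1.36 ± 0.13, adjusted p = 0.00622). The same 3 were called lower in Pxr-/- than in WT in PCN mice, by -3.31, -2.72 and -1.63. With PCN in Pxr-/- they differed by 0.59 ± 0.21 (Ces2a), -0.15 ± 0.17 (Akr1b7) and 0.49 ± 0.12 (Abcb1a). None of the 3 was called for the interaction of PCN and genotype (adjusted p = 0.950, 0.111 and 0.9997). With all 17 arrays none of the 9 was called, and Ces2a differed by 0.52 ± 0.72. All 3 genes read lower on WT PCN 3 and 4, which were left out, than on every other WT array. Their calls thus depend on leaving out these arrays, for which the low Ces2a values were described above. The list was also chosen with earlier results of these data known. The 3 genes are therefore no independent positive control for the GST genes. For the GST genes in WT, also without the near-identical arrays, the upper bound of the 95% interval was 3.20-fold for Gsta3 and at most 2.37-fold for the other 8, beside a 2.56-fold change of Abcb1a, 3.90-fold of Akr1b7 and 4.94-fold of Ces2a.

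**Figure D2:**
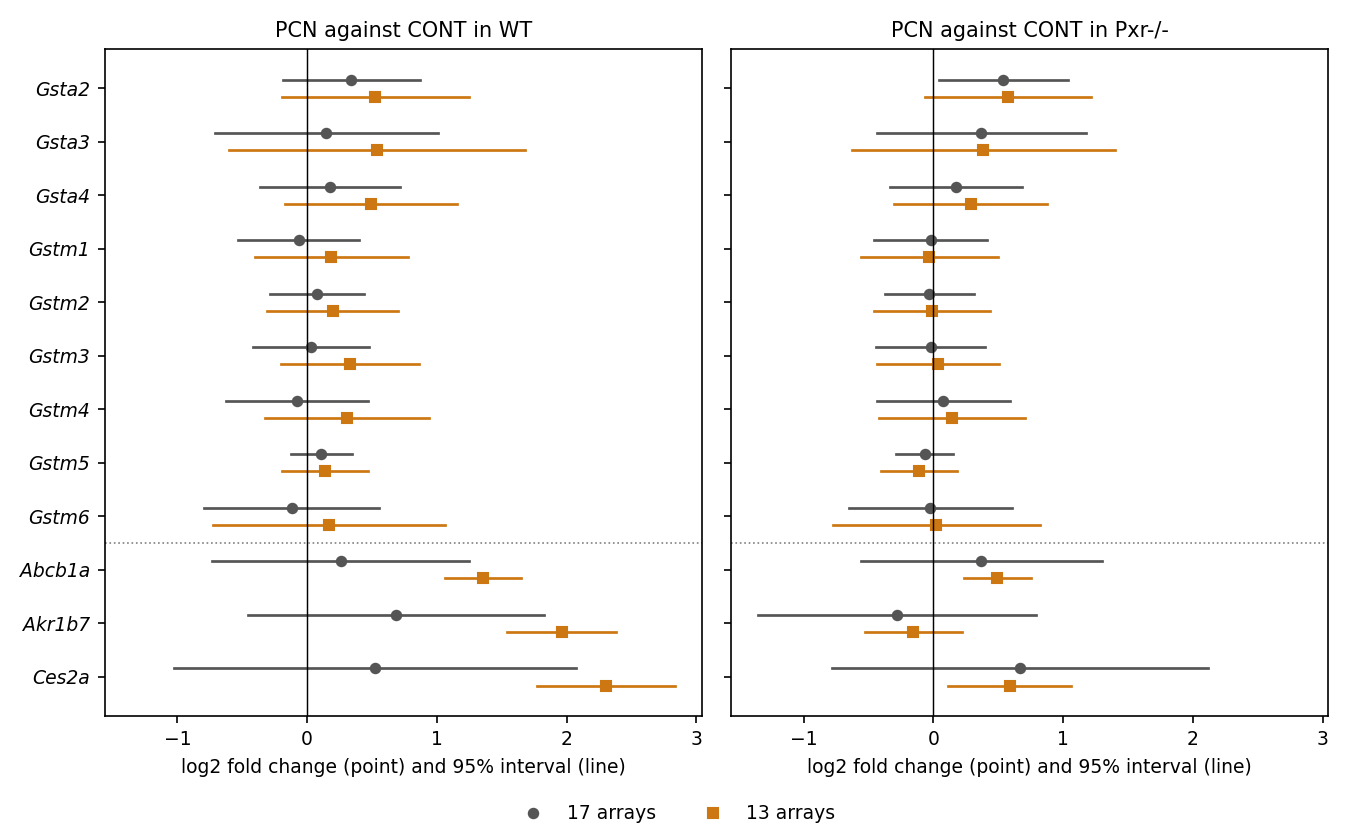
Log2 fold change of PCN against CONT (x axis; points, with 95% intervals as lines) for the 9 GST genes and, under the dotted line, 3 genes of the PXR list, in WT (left) and Pxr-/- (right), with 17 arrays (circles) and with 13 (squares). The 3 genes are drawn because they were called in WT with 13 arrays, where they lie at 1.36 to 2.30, and the other tested genes of that list are not drawn.

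The rest of the glutathione pathway was counted from lists of named genes. With 17 arrays, 0 genes of each list were called in either PCN comparison, and with 13 arrays the PXR list above was the only one with calls. Among 15 tested GSTs of other classes and Gstm7, the gene with the smallest p was Gstcd in WT (0.30 ± 0.12, adjusted p = 0.956) and Gsto1, an omega enzyme, in Pxr-/- (0.19 ± 0.07, adjusted p = 0.594). Among 14 genes of glutathione synthesis and recycling it was Chac1, which degrades glutathione, in WT (1.54 ± 0.53, adjusted p = 0.956) and Gclm, the modifier subunit of the rate-limiting ligase, in Pxr-/- (0.22 ± 0.09, adjusted p = 0.645). Without the near-identical arrays Chac1 stood at 0.89 ± 0.44 in WT.

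Of 10 glutathione peroxidases and glutaredoxins, Gpx7 in WT (0.28 ± 0.13) and Gpx3 in Pxr-/- (0.33 ± 0.14) had the smallest p, and of 6 genes for the export of conjugates Abcc2 in Pxr-/- (-0.12 ± 0.14). None of these 3 passed, with adjusted p of 0.632 or more. The 6 genes of NRF2 and its partners gave Mafk in WT (-0.16 ± 0.09) and Keap1, the inhibitor of NRF2, in Pxr-/- (0.18 ± 0.14), with adjusted p = 0.956 and 0.848. Of 16 NRF2 targets outside glutathione metabolism, Hmox1, the heme oxygenase, had the smallest p in both genotypes. It differed by 0.67 ± 0.28 in WT and 0.83 ± 0.26 in Pxr-/- (adjusted p = 0.956 and 0.486), and by 1.24 ± 0.19 and 0.91 ± 0.17 without the near-identical arrays (adjusted p = 0.0698 and 0.202), without passing the threshold. The medians of these 16 genes were 0.10 in WT and 0.04 in Pxr-/-.

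The GST genes differed between arrays in a common pattern that crossed the groups. Over the 13 arrays, Gsta3 and 5 mu genes (Gstm1, Gstm2, Gstm3, Gstm4 and Gstm6) had Pearson r between 0.70 and 0.95 in all 15 pairs, and Spearman rho between 0.67 and 0.95. The r of deviations from the group means was 0.75 to 0.99, so the pattern was present within groups. These correlations are descriptions over 13 arrays that share the hybridization and normalization, and the 6 genes were grouped after their values were seen. Gsta3 on chromosome 1 was thus as like the mu genes on chromosome 3 (r = 0.95 with Gstm6) as they were like each other.

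The other 3 genes followed the pattern less. Gstm5 had r of 0.21 to 0.72 with these 6 genes although it lies in the same cluster. Gsta2 had r of 0.02 to 0.51 with all members but Gsta4, and Gsta4 had r of -0.41 to 0.48 with the other members. Where a gene had a second probe, it followed the first, with r = 0.99 for Gsta3, 0.94 for Gstm5 and 0.87 for Gstm6. The low r of Gstm5 with the 6 genes thus came with agreement between its own probes.

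**Figure D3:**
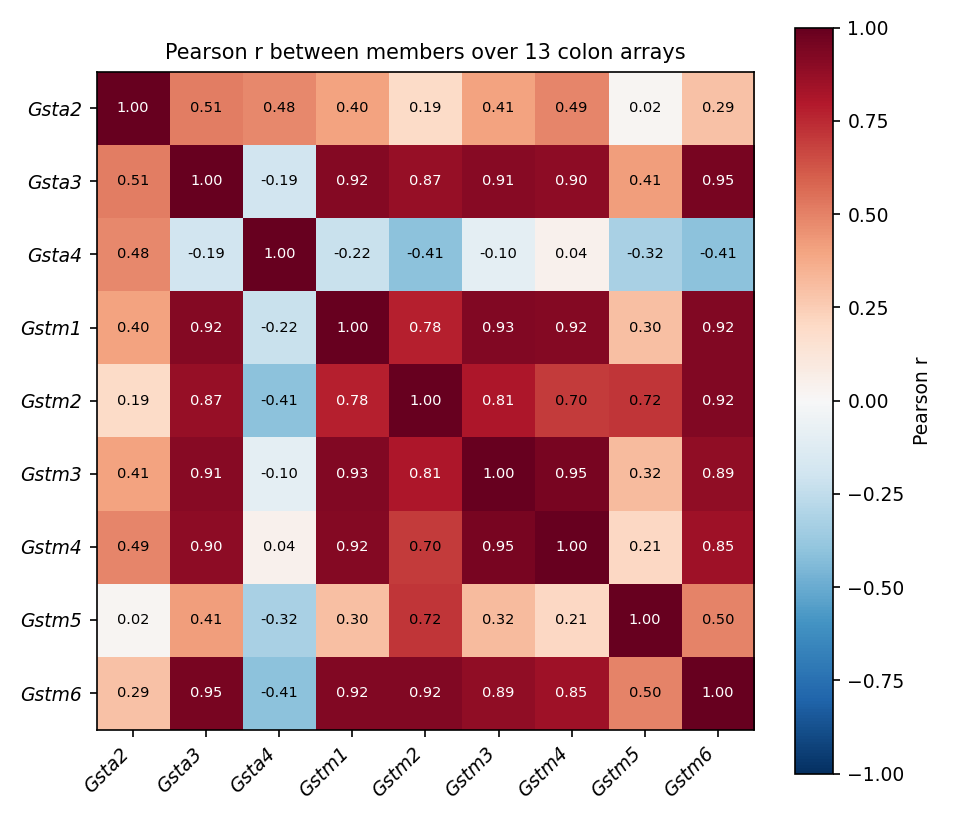
Pearson r between the 9 measured GST genes over 13 colon arrays (the 4 near-identical arrays left out), with rows and columns in the same order and colour from -1 to 1. Gsta3 and the mu genes other than Gstm5 form a block of r from 0.70 to 0.95, and Gsta4 is near or below 0 with most genes.

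The array names most like the mean of the 6 mu genes, outside the members, were Gstm7 (r = 0.94), Isyna1, an enzyme of inositol synthesis (r = 0.93), and the carboxylesterase Ces2g (r = 0.93), among 24991 names over 13 arrays. Gstm7 lies between Gstm5 and Gstm6 in the cluster. For the mean of the 3 alpha genes they were Gm10639 (r = 0.93) and 2 transcripts without a gene name (r = 0.90 each). All 3 probes are placed on chromosome 9 (mm9 78116774 to 78169165) between the probes of Gsta4 and Gsta2, and all 3 were most like Gsta2, with r of 0.91 to 0.98. The probe of Gm10639 shares a run of 30 bases with that of Gsta2, so their signals are not separate evidence, and values of Gsta2 are uncertain to that extent.

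Genes of the posterior Hox clusters, whose expression in the gut marks its distal end, moved with this pattern. Of 5 genes on the list for distal colon, 4 were tested, namely Hoxb13, Hoxd12, Hoxd13 and Hoxa13. Their mean log2 intensity ran from 8.79 to 10.94 in WT CONT, from 8.87 to 11.32 in WT PCN, from 8.38 to 10.45 in Pxr-/- CONT and from 6.54 to 11.36 in Pxr-/- PCN. The ranges of the groups overlapped, and the spread was widest in Pxr-/- PCN. Hoxb13 alone ran from 7.53 in Pxr-/- PCN 4 to 16.09 in WT CONT 3.

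The mean of the 6 mu genes followed the mean of the Hox genes with r = 0.89 and rho = 0.84 over 13 arrays. Without the 2 arrays farthest from the median of the Hox mean (Pxr-/- PCN 4 and Pxr-/- CONT 4) r was 0.72. It was 0.79 within the first wash bath (6 arrays), 0.96 within the second (7 arrays) and 0.92 for deviations from the group means. By gene, r was 0.94 for Gstm6, 0.90 for Gstm1, 0.88 for Gsta3, 0.80 for Gstm3, 0.79 for Gstm4 and 0.78 for Gstm2, but 0.37 for Gstm5, 0.28 for Gsta2 and -0.46 for Gsta4. The value for Gstm2 was 0.36 without the same 2 arrays and so rests on them. Of the single Hox genes, Hoxd13 (r = 0.84), Hoxb13 (0.82) and Hoxd12 (0.80, well above the background on 11 arrays) followed the mu mean more than Hoxa13 (0.57, rho 0.18).

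Pxr-/- PCN 4, with the lowest Hox values, was the lowest of all 17 arrays for 7 of the 9 GST genes. In Gstm6 it read 10.04, against 11.35, 10.65 and 11.48 on the other Pxr-/- PCN arrays. The remaining groups read 11.05, 11.61, 10.62 and 10.96 (WT CONT), 11.41, 11.04, 10.69 and 10.60 (WT PCN) and 11.16, 10.72, 10.93, 10.41 and 11.30 (Pxr-/- CONT). Without Pxr-/- PCN 4, the difference of Gsta3 with PCN in Pxr-/- was 0.79 ± 0.34 in place of 0.37 (adjusted p = 0.560).

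**Figure D4:**
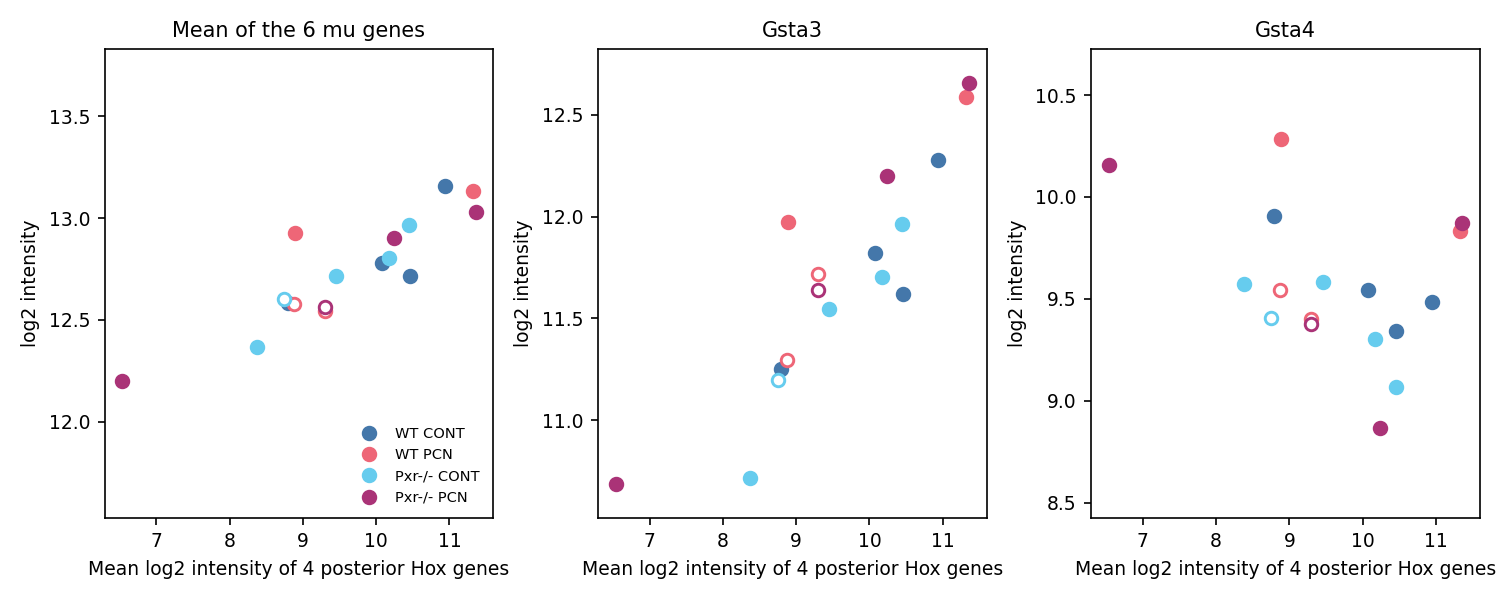
Mean log2 intensity of the 6 mu genes (left), and log2 intensity of Gsta3 (middle) and Gsta4 (right), against the mean log2 intensity of 4 posterior Hox genes (x axis) on 17 colon arrays, coloured by group, with the 4 near-identical arrays hollow. The mu mean and Gsta3 tend to be high where the Hox mean is high (r = 0.89 and 0.88 over 13 arrays, the groups pooled), and Gsta4 is not (r = -0.46). The relation was not computed for each group.

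Adding the Hox mean as a covariate, a fit chosen after these values were seen, narrowed the errors and gave 0 calls of 9 in all 5 comparisons, with 17 and with 13 arrays. Of all probes this fit called 0% in each comparison with 17 arrays. With 13 arrays it called 0.129% and 0.16% for PCN in WT and in Pxr-/-, 0.031% and 0.114% for genotype in CONT and in PCN, and 0.00258% for the interaction. For Gsta3 with 13 arrays the difference with PCN was 0.52 ± 0.16 in WT (adjusted p = 0.419) and 0.48 ± 0.14 in Pxr-/- (adjusted p = 0.217), and with 17 arrays 0.35 ± 0.14 and 0.40 ± 0.13 (adjusted p = 0.850 and 0.266). The difference was above 0 in both genotypes. For Gstm3 with 13 arrays it was 0.32 ± 0.13 in WT (adjusted p = 0.601). Whether the Hox values reflect the segment of colon taken was not tested.

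Lists of markers of other tissues were read on the same arrays. The 8 of 10 hepatocyte genes tested had a mean of 7.20 to 11.08 in WT CONT, 7.11 to 9.25 in WT PCN, 6.83 to 7.50 in Pxr-/- CONT and 6.79 to 7.51 in Pxr-/- PCN. The mean of the 8 pancreatic acinar genes was high on single arrays, namely 17.33 on WT CONT 4, 11.09 on WT PCN 1, and 15.11 and 15.08 on the near-identical arrays WT PCN 3 and Pxr-/- CONT 2, and lay between 6.55 and 7.03 on the other 13 arrays. Alb, the albumin gene, was well above the background on 16 arrays (5.16 to 12.68) and Pnlip, the pancreatic lipase gene, on 4. Over the 13 arrays without the near-identical ones, the mu mean had r = 0.33 with the hepatocyte list and -0.04 with the acinar list, and without the 2 arrays farthest from each list's median these were 0.63 and 0.68. For the colonocyte list, whose 8 genes were all tested and had means of 14.43 to 15.21, r was 0.32, and -0.45 without its 2 farthest arrays. Each of these 3 values thus changed when 2 arrays were left out.

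Within groups, the marker means of enteric neurons and of muscle were low where the mu genes were high. For deviations from the group means, the mu mean had r = -0.90 with the enteric neuron list, -0.81 with the skeletal muscle list and -0.74 with the smooth muscle list, beside 0.92 with the Hox genes. By mu gene, the r with the enteric neuron list ran from -0.94 (Gstm1) to -0.37 (Gstm5). Without centring on the groups, the mu mean had r of -0.50, -0.64 and -0.50 with the enteric neuron, skeletal muscle and smooth muscle lists. In the same order, it was -0.75, -0.69 and -0.79 within the first wash bath (6 arrays). Within the second (7 arrays) it was -0.32, -0.60 and -0.30. Without the 2 farthest arrays of each list, the uncentred values were -0.27, -0.46 and -0.20, so that the uncentred relations rest in part on those arrays. The centred values were not computed without those arrays. Among the other lists, the centred r of the mu mean was 0.64 with B and plasma cells and -0.60 with adipocytes. The 8 of 8 enteric neuron genes tested had means of 9.66 to 10.04 in WT CONT, 9.80 to 10.17 in WT PCN, 9.73 to 10.25 in Pxr-/- CONT and 9.44 to 9.83 in Pxr-/- PCN. The 8 smooth muscle genes had means of 14.40 to 15.42 and the 6 of 7 skeletal muscle genes tested of 6.92 to 7.33 over all arrays. Of the skeletal muscle genes, Actn3 was well above the background on only 6 arrays and Myh4 on 9. Over the 11 lists other than distal colon, r without centring ran from -0.64 to 0.52 (B and plasma cells). The part of these tissues in the GST values was not tested.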

How the data were processed

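Groups were taken from the submitters' labels. Cy3-labelled RNA had been hybridized by the authors to 1-colour arrays, and the scanner output they deposited (Agilent Feature Extraction 10.10.1.1) gives the intensity of a spot as its median brightness, with no normalization between arrays. The log2 values that the authors deposited as a table served to choose 1 probe per gene (the highest mean) and as an alternative. Here, log2 of the median intensity was taken without outlier spots, quantile-normalized between arrays (the authors' CrossNorm method could not be repeated from its description) and averaged per probe. Of 56605 probes, 38703 passed a filter of 4 or more arrays with a signal flagged as above background, and were tested. Per array, 62.7% to 71.0% of spots carried that flag. The number of arrays limits the precision.

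A model of the 4 groups with a wash bath term was fitted to all 17 arrays and all probes with limma 3.58.1 in R 4.3.3, with Benjamini-Hochberg adjustment over all probes, and was tested on simulated data. Calls required an adjusted p (FDR) no higher than 0.05 together with a change over 1.5-fold. Exact two-sided permutation tests of single genes left out the bath. Correlations (numpy 2.4.6, scipy 1.17.1) have no p. As the labels do not say that arrays are of separate animals, p-values measure the spread between samples. Probes were named through RefSeq accessions (32994 matched). All 9 measured members are named. Of the other lists, the genes called and the gene with the smallest p in each PCN comparison are named, except 1 gene that is not reported here. The members and lists were chosen with earlier results of these data known. Alternatives cover normalization, filters, blocks, array weights, thresholds, other probes and arrays left out. The liver arrays of the same design were not used here.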

Additional observations from a re-analysis of the deposited data

Results flagged for a closer look

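Of 36 sets of arrays (9 genes in 4 groups), 1 held a single array apart from the rest. Gstm2 read 13.98 in WT CONT replicate 3, while the other WT CONT arrays read 13.68, 13.62 and 13.63. Chance flags about 1 in 20 such sets.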

How the results depend on the processing

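The count of alpha and mu genes called was 0 in each comparison fitted under the 41 alternative settings, including an FDR of at most 0.05 with no fold limit, an FDR of at most 0.1, the authors' log2 values, normexp, the slide as a block, array weights and, where a gene had one, its second probe. The fit on only the 2 groups of a comparison has no interaction. Of all 38703 probes, the settings with the most calls were array weights (521 in Pxr-/- against WT in CONT), the Hox covariate with 13 arrays (62 for PCN in Pxr-/-) and the fit without WT PCN replicates 3 and 4 (39 for PCN in WT). Leaving out each array in turn gave 0 to 0. Same-numbered arrays did not pair (10 of 22 such pairs had r over 0.1 between deviations from group means, median 0.04), and the fit with the replicate number as a block also called 0 members. The smallest adjusted p of a member in any setting was 0.123 (Gstm5, Pxr-/- against WT in CONT, array weights). Directions were less stable than calls: of 45 member differences, none of which passed, 10 had the other sign without the near-identical arrays, 16 with the slide as a fixed block, 13 without Pxr-/- PCN replicate 4, and 1 with the authors' log2 values. The fits with the Hox covariate and without further arrays were chosen after seeing the data. The causes were not tested. The 4 or 5 arrays per group, and 2 in WT PCN without the near-identical arrays, set the width of the intervals.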
